A study of Drosophila melanogaster with 30 samples.

Results

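The genes followed here across cut and uncut leg discs of Drosophila melanogaster are 5 members of the Notch pathway: Dl, Su(H), H, E(spl)mbeta-HLH and E(spl)m7-HLH. Taken for them was every probe set that carries one of these names in either of the authors' deposited tables of comparisons, where the E(spl) genes may stand under the older symbols HLHm7 and HLHmbeta. This gave 5 of the 3172 genes named in either table and 6 probe sets, 2 of them for Dl and 1 for each other gene, of 3556 probe sets listed in either table and 18952 in the table of values per sample. All 6 are listed in the table of cut comparisons and none in the table of culture comparisons. Each table holds only probe sets with a small overall adjusted p over its 4 comparisons, the largest listed being 0.000999 in the table of cut comparisons. A gene could therefore be named here only if it had passed such a test, so the counts of members that differ between cut and uncut regions describe where and how far they differ and support nothing about the pathway as a whole.

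Notch signalling passes between neighbouring cells. Delta, the product of Dl, is a ligand on one cell that binds the receptor Notch on the next. The receptor is then cut, and its inner part enters the nucleus and joins Su(H), a DNA-binding protein, with which it switches on target genes. Without a signal, Hairless, the product of H, holds Su(H) together with co-repressors and keeps those targets off. The Enhancer of split genes, E(spl)mbeta-HLH and E(spl)m7-HLH among them, are classical targets that encode basic helix-loop-helix repressors. In the leg disc the pathway is known for setting up the joints at segment borders and for singling out the precursors of sensory organs.

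Messenger RNA of prothoracic leg discs, the larval sheets of epithelium that form the first pair of legs, was measured on 30 Affymetrix arrays. Male larvae were taken at 100 h after egg laying. All samples shared 1 genotype: w/Y for the first chromosome, AyGAL4 with UAS-GFP in 1 copy, and puc[E69-I]-GAL4 opposite UAS-flp. In this lineage reporter a driver at puc, a gene induced by JNK signalling, marks cells and their descendants with GFP. Cut discs were divided into an anterior 1/4 and a posterior 3/4, the fragments were kept in the abdomens of adult females for 12 or 24 h, and the GFP-positive part was isolated. Uncut discs kept in the same way for 12 or 24 h, and fresh uncut discs that were not cultured, gave the corresponding anterior and posterior regions, so that 10 groups of 3 samples resulted. Only cut samples were isolated by their GFP, so the cut and the choice of GFP-positive cells cannot be told apart in any comparison of cut with uncut regions. The labels call the 3 samples of a group biological replicates, and p-values measure the spread between these samples. In such bulk RNA, fewer cells of a type and less RNA per cell cannot be told apart.

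The deposited values are on a log2 scale and centred per probe set, so no level can be compared between genes. For each member the means of cut 12 h posterior and uncut 12 h anterior samples were equal and opposite, as in Dl at 1634659_at (-0.2302 and 0.2302). Both groups were thus centred apart from the other groups, and a value of 0 need not be the same level in both sets of arrays. Any comparison of either group with another group carries this separate centring. Its part in the differences was not tested. Because the values are centred, the tissue could not be checked against its markers, since a gene's absence does not show in them. Array medians lay between -0.037 and 0.0396. Ilp8, the hormone that damaged discs release, was called higher in all 4 comparisons of cut with uncut cultured regions, by 1.97 to 3.93 on the log2 scale. The uncut 12 h posterior regions were themselves higher than fresh ones for Ilp8 (1.09, limma adjusted p = 0.00042) and for Mmp1, a matrix protease gene of the wound response (1.48 to 1.76 over its 3 probe sets). A difference was called where the adjusted p of limma, with Benjamini-Hochberg adjustment over 18769 probe sets, was under 0.05. An exact permutation test of 3 against 3 samples cannot give a two-sided p under 0.1, so the tests of single genes rest on limma's shared estimate of spread. The simulated data for the 12 h anterior comparison had 100 seeded changes of 0.5 and 100 of 1 on the log2 scale, of which 54 and 97 were called, so a difference near 0.5 can be missed at this sample number. Far fewer probe sets were seeded than the 1068 called lower and 592 called higher in the real comparison. The Benjamini-Hochberg cutoff was thus stricter in the simulation, and these shares are not the rate of calls in the data.

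All 6 probe sets had a lower mean in the cut than in the uncut cultured region in each of the 4 comparisons. Each 12 h comparison sets a group that was centred apart against a group of the other arrays. Its differences carry that centring, and the size of this part is not known. Both 24 h comparisons lie within arrays centred together. At 12 h in the anterior region all 6, covering all 5 genes, were called lower, where 5.69% of all probe sets were called lower. At 24 h in the posterior region 4 of the 6 were called lower, both probe sets of Dl with H and E(spl)m7-HLH, against 5.04% of all probe sets. At 12 h in the posterior region and at 24 h in the anterior region only Su(H) was called lower, against 3.04% and 3.03% of all probe sets. The median log2 difference of the 6 probe sets was -0.62 in the anterior and -0.39 in the posterior region at 12 h, and -0.26 and -0.46 at 24 h, while the median over all probe sets lay between -0.0019 and 0.0169. Every cut sample was below every uncut sample for 6 of 6 probe sets at 12 h anterior, where this held for 15.5% of all probe sets. The same was true of 6 of 6 at 12 h posterior (11.8% of all), 1 of 6 at 24 h anterior (8.84%) and 6 of 6 at 24 h posterior (11.7%). Because the names come from the table of cut comparisons, nothing is read from these shares beyond where the deposited values differed widely. Single arrays decided several calls: without the third cut 12 h anterior sample 3 of 6 were called at 12 h anterior, and without the first uncut 24 h posterior sample 0 of 6 were called at 24 h posterior.

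Dl, the ligand, was read by 2 probe sets that moved together. For probe set 1634659_at the uncut 12 h anterior samples stood at 0.31, 0.02 and 0.37 and the cut samples at -0.27, -0.46 and -0.57. The groups did not overlap, and Dl fell by 0.66 on the log2 scale (SE 0.13, 95% interval -0.93 to -0.39, limma adjusted p = 0.00132), which is 1.58-fold. Probe set 1634398_a_at gave uncut samples of 0.37, 0.29 and 0.23 and cut samples of -0.29, -0.17 and -0.43, and fell by 0.59 (SE 0.12, limma adjusted p = 0.00232). At 24 h in the posterior region 1634659_at stood at 0.55, 0.30 and 0.31 in uncut and at -0.36, -0.21 and 0.17 in cut samples. One cut sample lay close to the uncut ones without overlapping them, and the fall of 0.52 was called (limma adjusted p = 0.00935), as was the fall of 0.40 at 1634398_a_at (limma adjusted p = 0.0372). Both calls rested on single samples: that of 1634659_at was lost without the first cut or the first uncut sample (adjusted p up to 0.0766), and that of 1634398_a_at without any uncut sample or the first or the second cut one (up to 0.195).

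The other comparisons of Dl were smaller. In the posterior region at 12 h the uncut samples of 1634659_at were at -0.03, 0.16 and -0.09 and the cut samples at -0.21, -0.21 and -0.27, a log2 difference of -0.24 that was not called (95% interval -0.51 to 0.02, limma adjusted p = 0.385). At 24 h in the anterior region the uncut samples at 0.23, -0.06 and 0.14 overlapped with the cut samples at 0.13, -0.05 and -0.15, and the log2 difference was -0.13 (-0.39 to 0.14, limma adjusted p = 0.686). Probe set 1634398_a_at gave -0.31 (limma adjusted p = 0.162) and -0.24 (limma adjusted p = 0.298) in the same comparisons. Fresh regions lay between the cut and uncut extremes, at 0.03 ± 0.19 in the anterior and 0.05 ± 0.12 in the posterior region (SD, n = 3) for 1634659_at. The lowest group of this probe set was cut 12 h anterior (-0.43 ± 0.15) and the highest uncut 24 h posterior (0.39 ± 0.14). Of the steps between groups that neighbour each other in that order, only that from cut 12 h anterior to cut 12 h posterior (-0.23 ± 0.03) was wider than the larger SD. Cut 12 h posterior and uncut 12 h anterior samples were centred apart, so nothing is read from that step or from their places in the order.

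Su(H), the DNA-binding partner of the activated receptor, was the one member called lower in 3 of the 4 comparisons of cut with uncut cultured regions. Its anterior values at 12 h were 0.12, 0.13 and 0.32 in uncut and -0.34, -0.22 and -0.42 in cut samples, a fall of 0.51 (SE 0.12, 95% interval -0.76 to -0.26, limma adjusted p = 0.00724). This call was lost without the third cut or the third uncut sample (adjusted p up to 0.0505). At 24 h in the anterior region, where the other members were not called, the uncut samples were at 0.14, 0.07 and 0.37 and the cut samples at -0.28, -0.21 and -0.25. These cut samples were close to each other and below all uncut samples, and Su(H) fell by 0.44 (limma adjusted p = 0.0225). In the posterior region the fall at 12 h was 0.45 (limma adjusted p = 0.0275), from 0.01, 0.45 and 0.34 in uncut to -0.11, -0.10 and -0.36 in cut samples. At 24 h posterior the uncut samples at 0.22, 0.25 and 0.38 stayed above the cut samples at 0.05, -0.06 and -0.24, yet the log2 difference of -0.36 was not called (95% interval -0.61 to -0.11, limma adjusted p = 0.0574). The 4 log2 differences of Su(H) thus lay between -0.51 and -0.36, a narrower range than for any other member. Both 12 h differences in this range carry the separate centring. The 24 h anterior call was lost when any cut 24 h anterior sample or the third uncut one was left out (limma adjusted p up to 0.126), and the 12 h posterior call when any of 3 samples was (up to 0.175).

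H encodes Hairless, the antagonist that holds Su(H) in its repressing state, and its RNA was called lower at 12 h anterior and at 24 h posterior. The uncut 12 h anterior samples were at 0.38, 0.15 and 0.39 and the cut ones at -0.16, -0.21 and -0.65, a fall of 0.65 (SE 0.15, limma adjusted p = 0.00535). The third cut sample was the lowest, and without it the difference was -0.49 and was not called (limma adjusted p = 0.0694). In the posterior region at 24 h H fell by 0.58 (limma adjusted p = 0.0118), from 0.29, 0.11 and 0.24 in uncut to -0.15, -0.59 and -0.35 in cut samples, a call that was lost without the second cut or the first uncut sample (up to 0.0816). At 12 h posterior the uncut samples at 0.06, 0.27 and 0.04 were all above the cut samples at -0.34, -0.20 and -0.39, and the log2 difference was -0.43 (limma adjusted p = 0.0963). At 24 h anterior the uncut samples spread from -0.14 to 0.43 and overlapped with the cut samples, which ran from -0.39 to 0.11 (log2 difference -0.29, limma adjusted p = 0.296). The probe set of H, 1638568_s_at, is of a kind that by the manufacturer's naming may match transcripts of more than one gene, which was not tested here.

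Both Enhancer of split members were lower in the cut 12 h anterior region, and E(spl)m7-HLH showed the widest differences of the 5 genes. Its uncut 12 h anterior samples were at 0.58, 0.24 and 0.65 and its cut samples at -0.57, -0.46 and -0.73, a fall of 1.07 (SE 0.26, 95% interval -1.61 to -0.54, limma adjusted p = 0.00854) or 2.10-fold. Without the third cut sample the adjusted p was 0.0518. At 24 h posterior E(spl)m7-HLH fell by 0.93 (limma adjusted p = 0.0205), from 0.81, 0.21 and 0.61 in uncut to -0.01, -0.80 and -0.37 in cut samples. This call was lost without the second or the third cut sample or the first or the third uncut one (adjusted p up to 0.125). Within groups its SD reached 0.51, in fresh anterior regions, where its samples were at 0.47, -0.56 and -0.12. The wide spread bears on its other comparisons: at 12 h posterior the log2 difference was -0.61 (95% interval -1.14 to -0.07, limma adjusted p = 0.222), with uncut samples at -0.04, 0.41 and -0.02 above cut samples at -0.60, -0.62 and -0.25. At 24 h anterior the uncut samples at 1.04, 0.11 and 0.23 overlapped with the cut samples at -0.01, -0.30 and 0.16, for a log2 difference of -0.51 (limma adjusted p = 0.285).

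E(spl)mbeta-HLH stood at 0.27, 0.34 and 0.15 in uncut and at -0.28, -0.29 and -0.43 in cut 12 h anterior samples, and fell by 0.58 (SE 0.11, limma adjusted p = 0.00136). At 12 h posterior the uncut samples at 0.04, 0.04 and 0.23 were above the cut samples at -0.14, -0.35 and -0.26, with a log2 difference of -0.35 that was not called (limma adjusted p = 0.0757). At 24 h anterior the cut samples at 0.01, 0.13 and 0.05 lay inside the range of the uncut samples, which were at 0.21, -0.10 and 0.15. The log2 difference was -0.03 there (95% interval -0.26 to 0.21, limma adjusted p = 0.95). At 24 h posterior the uncut samples were at 0.29, 0.11 and 0.06 and the cut samples at -0.06, 0.05 and -0.40. These did not overlap, and the log2 difference of -0.29 was not called (limma adjusted p = 0.122).

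**Figure D1:**
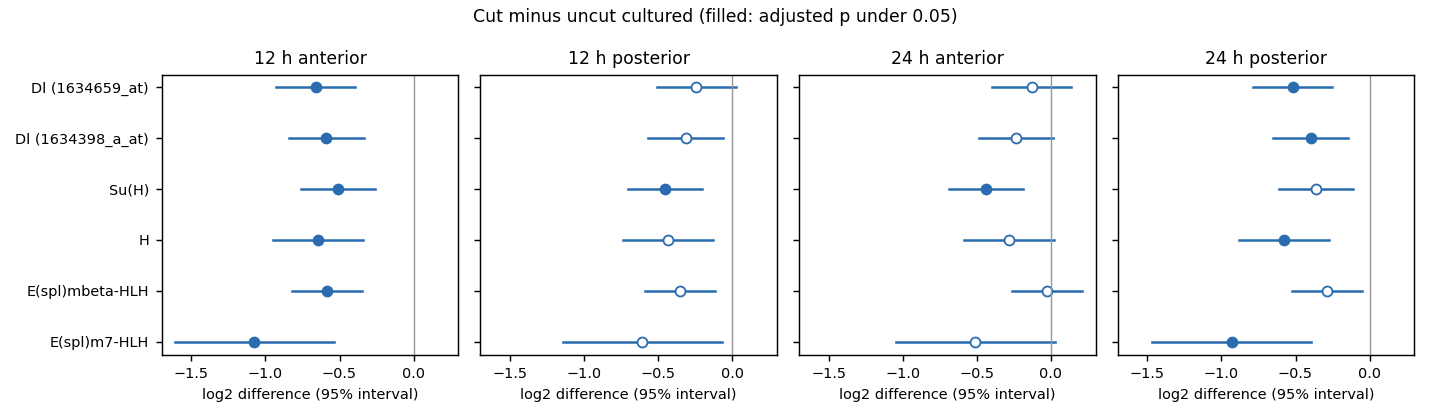
Log2 difference of cut minus uncut cultured regions for each probe set in the 4 comparisons, with its 95% interval from limma; filled points have an adjusted p under 0.05. All points lie below 0, all 6 are filled at 12 h anterior, and at 24 h anterior E(spl)mbeta-HLH sits next to 0. Both 12 h panels carry the separate centring.

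Interaction contrasts were run for the difference of the cut effect between regions or culture times. Only the contrast between regions at 24 h lies within arrays centred together. The others include uncut 12 h anterior or cut 12 h posterior samples and cannot tell a difference of the cut effect from the separate centring. Between regions at 12 h, the means of those samples cancel, so that contrast cannot decide whether the cut effect differed. No member was called in any of the 4. Between regions at 12 h the smallest adjusted p was 0.78, where 0.208% of all probe sets were called, and 1 of 6 had an unadjusted p under 0.05, as did 5.54% of all probe sets. Between regions at 24 h it was 0.714 against 0.123% of all probe sets called, again with 1 of 6 at the unadjusted level, against 6.81% of all. Both were the Dl probe set 1634659_at, for which the anterior minus the posterior cut effect was -0.42 at 12 h (95% interval -0.79 to -0.04) and 0.39 at 24 h (0.01 to 0.77). Between 12 and 24 h in the anterior region 2.15% of all probe sets were called, and 2 of 6 members had an unadjusted p under 0.05, against 13.8% of all. The wider of these, E(spl)mbeta-HLH, had a cut effect that was 0.56 less negative at 24 h (95% interval 0.22 to 0.89, limma adjusted p = 0.073), followed by Dl with 0.53 at 1634659_at (limma adjusted p = 0.148). Su(H) showed a change of 0.08 (95% interval -0.28 to 0.43) in the same contrast. In the posterior region the smallest adjusted p between times was 0.80, against 0.474% of all probe sets called, and 0 of 6 had an unadjusted p under 0.05, against 8.7% of all. A call in one region or time and none in another is thus not shown to be a difference between them.

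Fresh anterior and posterior regions did not differ by a called amount for any member, with log2 differences from -0.13 to 0.08 (smallest adjusted p = 0.791). Of all probe sets 0.714% were called between the fresh regions, and 0 of 6 members had an unadjusted p under 0.05, against 9.88% of all.

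Culture of uncut regions in the abdomen called 0 of 6 probe sets in each of the 4 comparisons with fresh regions. Over all probe sets 15.8% were called at 12 h anterior, 20.2% at 12 h posterior, 32.1% at 24 h anterior and 24.1% at 24 h posterior. At an unadjusted p under 0.05 the members numbered 3, 0, 1 and 3 in the same order, all of them higher after culture, where 28.8%, 28.4%, 41.4% and 32.7% of all probe sets passed in either direction. E(spl)m7-HLH had log2 differences of 0.56, 0.14, 0.53 and 0.56 and Su(H) of 0.30, 0.25, 0.30 and 0.26 in these comparisons. Unlike the others, the 12 h anterior comparison sets samples centred apart against fresh ones of the other arrays, so it carries the separate centring. The 95% interval of Su(H) at 24 h anterior ran from 0.05 to 0.55 (limma adjusted p = 0.0579), and without the first fresh anterior sample the adjusted p was 0.0116. In that fresh group Su(H) was at 0.13, -0.24 and -0.22, and E(spl)m7-HLH at 0.47, -0.56 and -0.12, so the first fresh sample was the highest for both genes. H stayed within -0.16 to 0.05 in the 4 comparisons, with 95% intervals between -0.46 and 0.35.

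Cut regions were also set against fresh regions of the same side, with the caution that these comparisons share the cut samples with those above. Of these, the 12 h posterior comparison carries the separate centring. H was called lower in all 4, by 0.60 at 12 h anterior (limma adjusted p = 0.00566), 0.49 at 12 h posterior (0.0364), 0.44 at 24 h anterior (0.0464) and 0.55 at 24 h posterior (0.00903). Its fresh anterior samples were at 0.42, 0.13 and 0.24 and its fresh posterior samples at 0.13, 0.31 and 0.12, above every cut sample of the same side. The 24 h anterior call of H was lost in 18 of 30 fits with 1 array left out, including arrays of other groups, and its 12 h posterior call without any 1 of the 6 samples compared (adjusted p up to 0.168). Its 12 h anterior call was lost without the third cut sample and its 24 h posterior call without the second cut or the second fresh one. Su(H) was called in none, with log2 differences of -0.21, -0.21, -0.13 and -0.10, since its fresh samples lay near its cut samples. E(spl)m7-HLH was called in none either (-0.52, -0.47, 0.02 and -0.37). Dl was called at 12 h anterior through 1634659_at (-0.46, limma adjusted p = 0.0152) and at 12 h posterior through 1634398_a_at (-0.43, limma adjusted p = 0.0269). E(spl)mbeta-HLH was called at 12 h anterior (-0.38, limma adjusted p = 0.0234). Both 12 h anterior calls were lost without the third cut or the first fresh sample, and the 12 h posterior call of Dl without any of 4 samples, the second and the third cut sample and the first and the second fresh one. That made 3, 2, 1 and 1 of 6 probe sets called lower, where 7.56%, 3.95%, 5.53% and 7.22% of all probe sets were. Without the third cut 12 h anterior sample 0 of 6 were called at 12 h anterior.

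**Figure D2:**
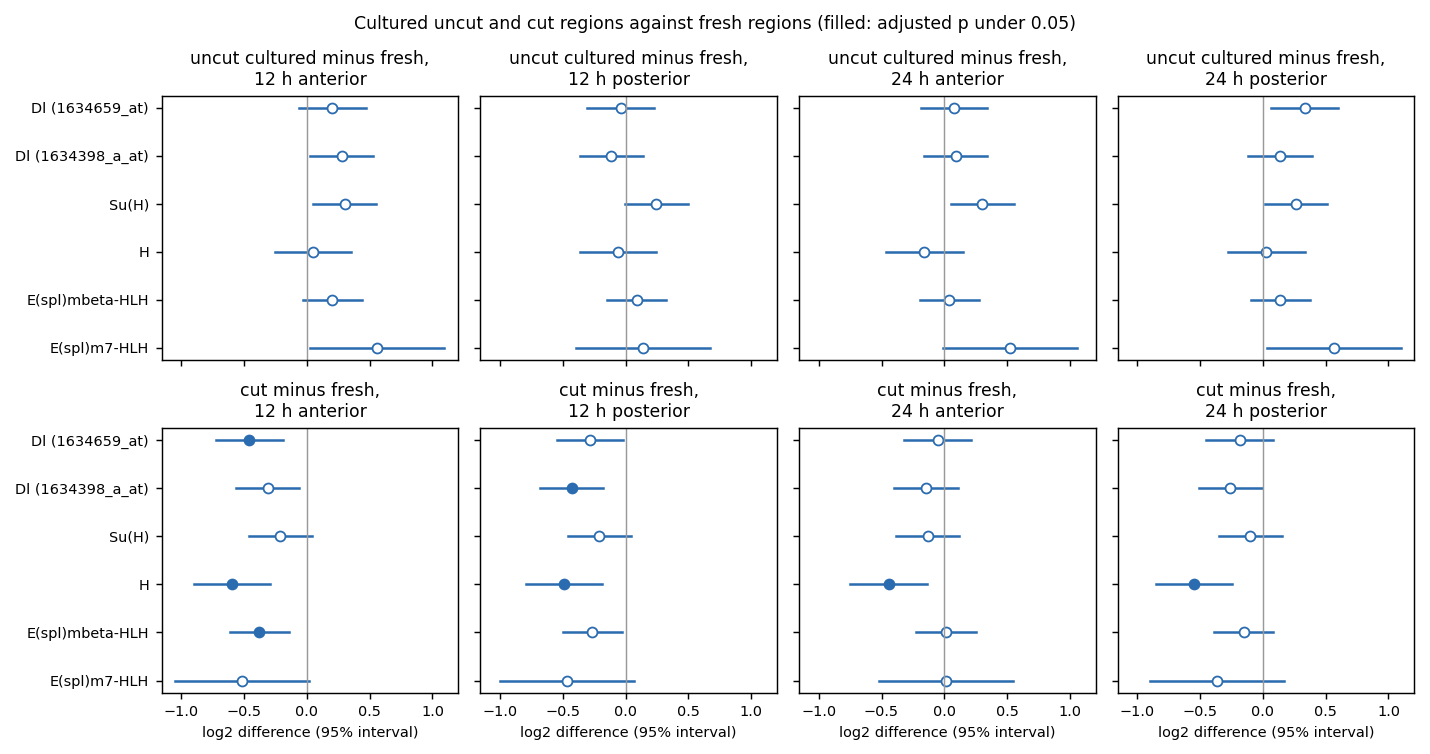
Log2 differences, with 95% intervals, of uncut cultured minus fresh regions (upper panels) and of cut minus fresh regions (lower panels); filled points have an adjusted p under 0.05. No point is filled in the upper panels, and H is the only gene filled in all 4 lower panels. The upper 12 h anterior and the lower 12 h posterior panels carry the separate centring.

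The members followed similar courses over the 10 group means. Their Pearson correlations, given as a description over groups that share arrays' normalization and controls, ran from 0.726 for Su(H) with H to 0.937 for the 2 probe sets of Dl. The separate centring makes the means of cut 12 h posterior and uncut 12 h anterior equal and opposite for each member. These correlations and the likeness given below carry it. Group means spanned from 0.58 for E(spl)mbeta-HLH to 1.13 for E(spl)m7-HLH on the log2 scale. In the authors' deposited table all 6 probe sets belong to cluster IV of 4, which holds 637 of the 1480 probe sets listed, and they rank between 847 and 1404 of 1480. Among named probe sets of other genes whose group means span at least 1 on the log2 scale (1494 candidates), Ect3 was among the 3 most like E(spl)m7-HLH (r = 0.97), E(spl)mbeta-HLH (0.97) and Dl at 1634659_at (0.96). Awh was the most like both probe sets of Dl (0.94 and 0.97), Cad86C was the most like Su(H) (0.96), Syp the most like H (0.96) and CG11550 the most like E(spl)m7-HLH (0.98). E(spl)mdelta-HLH, another gene of the complex, was the third most like E(spl)mbeta-HLH (0.95). These rankings depended on the measure: with Spearman's rho at most 1 of the 3 probe sets was shared for each of E(spl)m7-HLH, Su(H), H, E(spl)mbeta-HLH and Dl at 1634659_at.

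The other genes of the pathway were taken from a list of 54 genes, of which 17 are named in a deposited table, the 5 members and 12 others. The other 37, the receptor N and the ligand Ser among them, are named in neither table and are not described. At 12 h anterior 6 of the 12 others were called lower, where 5.69% of all probe sets were, and 0 were called higher. These 6 were E(spl)m2-BFM, E(spl)mdelta-HLH, Nedd4, bib, dys and kuz. At 12 h posterior 2 were called lower, Nedd4 and Ocho, against 3.04% of all probe sets. At 24 h anterior dys was called lower, against 3.03% of all probe sets. In the same comparison E(spl)m2-BFM, lqf and pen-2 were called higher, where 5.59% of all probe sets were called higher. At 24 h posterior 2 were called lower, E(spl)mdelta-HLH and dys, against 5.04% of all probe sets. With 1 array left out the calls of Ocho (any of 4 arrays), lqf (1 array) and pen-2 (either of 2) were lost. The medians over the 12 were -0.49, -0.07, 0.14 and -0.17 in this order. Of these genes 5 are named through the table of cut comparisons (E(spl)mdelta-HLH, Nedd4, bib, dys and kuz), so their calls were in part fixed by that. The other 7 are in the table of culture comparisons alone. The overall test of that table used the same uncut cultured arrays, so the calls of these 7 are not free of the naming either.

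E(spl)mdelta-HLH stands first in the gene order of the complex in the RefSeq annotation, with E(spl)mbeta-HLH in place 3 and E(spl)m7-HLH in place 11 of 12, and encodes a repressor of the same family. Its uncut 12 h anterior samples were at 0.56, 0.19 and 0.40 and its cut samples at -0.83, -0.63 and -0.49, a fall of 1.03 (SE 0.12, limma adjusted p = 3.98e-06). It fell by 0.70 at 24 h posterior (limma adjusted p = 0.000543) and had log2 differences of -0.36 at 12 h posterior (0.0952) and -0.04 at 24 h anterior (0.915). E(spl)mbeta-HLH had its widest and narrowest differences in the same 2 anterior comparisons. The 12 h differences of these and the following genes carry the separate centring. E(spl)m2-BFM, a Bearded family gene of the complex whose relatives restrain ligand uptake, went 2 ways: it fell by 0.70 at 12 h anterior (limma adjusted p = 0.0104) and was 0.58 higher at 24 h anterior (0.0356). The first of these calls was lost without either of 2 arrays and the second without any of 5. Nedd4, a ubiquitin ligase that acts on the receptor, fell by 0.64 at 12 h anterior (limma adjusted p = 0.00254) and by 0.76 at 12 h posterior (0.00117). The bHLH-PAS factor gene dys, which the list holds as a leg joint gene and which is also the only named one of 3 tracheal markers listed, fell by 0.62 at 12 h anterior, 0.67 at 24 h anterior and 0.51 at 24 h posterior (limma adjusted p = 0.00561, 0.00302 and 0.0215). Without the first uncut 24 h posterior sample the last was -0.27 and was not called, nor was it without the third cut one, and the first was lost without the third uncut 12 h anterior sample.

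**Figure D3:**
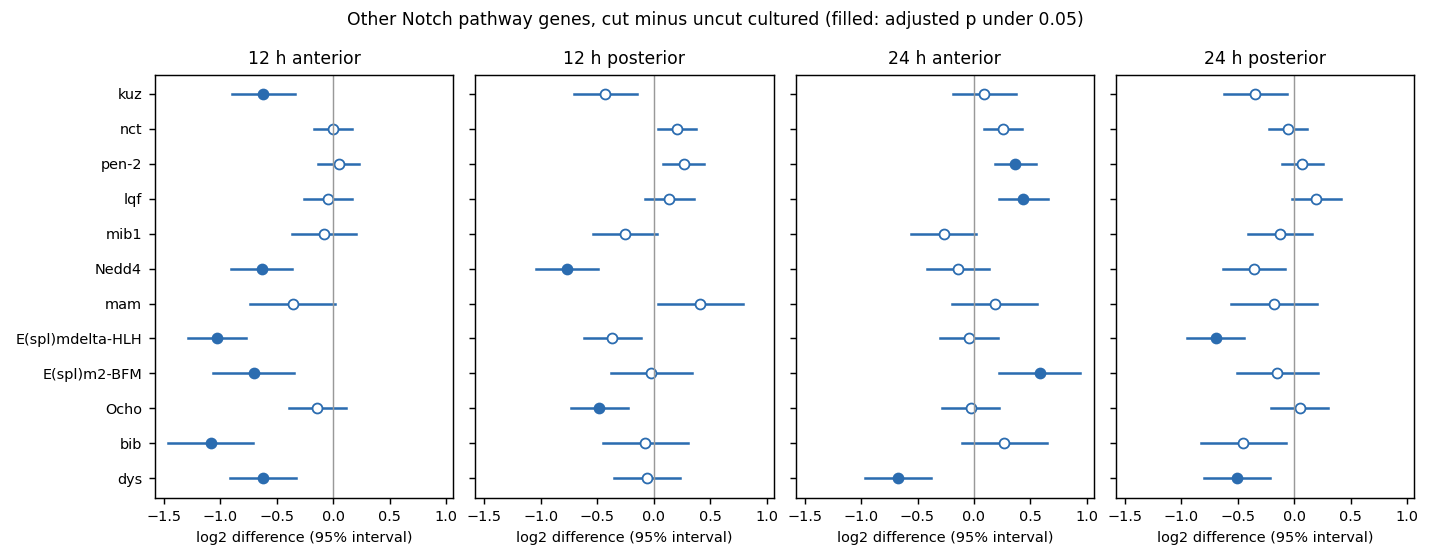
Log2 difference of cut minus uncut cultured regions for the 12 other named Notch pathway genes, with 95% intervals; filled points have an adjusted p under 0.05. At 12 h anterior the 6 filled points are all below 0, while at 24 h anterior 3 of the 4 filled points are above 0. Both 12 h panels carry the separate centring.

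Markers of other cells moved with these results. Of 13 listed markers of sensory organ precursors and neurons 5 are named (Appl, ase, futsch, phyl and sens). Counts are given with both 12 h comparisons first and the anterior region before the posterior. Both 12 h comparisons carry the separate centring for the markers too. In cut regions 5.69%, 3.04%, 3.03% and 5.04% of all probe sets were called lower, and 5, 0, 1 and 4 of these 5 markers. Their mean level in the cut 12 h anterior samples ran from -1.48 to -0.90, against -0.0001 to 0.18 in the uncut samples, and at 24 h posterior from -0.45 to -0.14 against 0.53 to 1.10. At 24 h anterior, where Su(H) was called, it ran from -0.54 to 0.07 in cut and from 0.29 to 0.40 in uncut samples, again without overlap. The 12 h anterior and 24 h posterior comparisons are those in which most members were called, and the markers' part in the result was not tested. At 12 h posterior, where Su(H) was called, the marker mean ran from -0.28 to 0.05 in cut and from 0.04 to 0.15 in uncut samples. Of 8 listed myoblast and muscle markers 6 are named, of which 5, 2, 0 and 4 were called lower, against the same shares of all probe sets. The muscle marker bt was called higher in the first 3 comparisons, so the mean of these markers mixes genes that moved in opposite directions. That mean was -0.10 to -0.01 in cut and 0.13 to 0.17 in uncut 12 h anterior samples, and -0.11 to -0.02 against 0.12 to 0.41 at 24 h posterior. At 24 h anterior it overlapped (0.16 to 0.31 against 0.16 to 0.40), with bt 0.94 higher in cut samples. Of 7 listed hemocyte markers 5 are named, and 1, 1, 4 and 4 were called higher in cut regions. Of all 18769 probe sets 592, 377, 1050 and 902 were called higher in the same order. The mean of the hemocyte markers ran from 1.08 to 1.56 in cut and from -0.17 to 0.34 in uncut 24 h anterior samples. In contrast, ush was called lower at 12 h anterior (-0.66, limma adjusted p = 0.002). Scr, the only named one of 8 markers of the peripodial and disc epithelium, was called lower at 12 h anterior (-0.83) and 24 h posterior (-0.77), where most members were called. Of the glial markers repo was called lower in both anterior comparisons (-0.84 at 12 h and -1.81 at 24 h), and moody was called higher at 12 h anterior (1.22) and 24 h posterior (0.92). Of the cell cycle genes CycE was called lower at 12 h anterior (-0.63), CycE and PCNA were called higher at 24 h anterior (0.50 and 0.68), and PCNA was called higher at 24 h posterior (0.48). Yp1, a yolk protein gene of the adult female host, was called higher in cut 24 h posterior samples (1.10 to 3.22 against -0.11 to 0.56). The part of muscle, blood, glial and host cells, and of cell division, in the members' values was not tested either, and markers at or near absence cannot be seen in centred values.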

How the data were processed

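Per the submitters' processing notes, the authors normalized the arrays with RMA and tested them with limma, without versions. The deposited value table holds log2 values (the base is not written and is taken as the usual RMA scale) centred per probe set. By their values, uncut 12 h anterior and cut 12 h posterior samples were centred apart from the other groups. The deposited tables hold log fold changes of 4 comparisons and 1 adjusted p-value over all 4, per the file headers. Group mean differences matched the deposited log2 columns within 1.6e-08, so those columns carry the same separate centring. Two-cycle amplification to biotin-labelled cRNA preceded hybridization, per the labels' protocols.

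Here limma 3.58.1 (R 4.3.3) was fitted to all 10 groups with 1 mean per group, 20 residual degrees of freedom and a constant prior, after leaving out 183 control probe sets. Each of 17 contrasts was adjusted over 18769 probe sets by the Benjamini-Hochberg method. The fit was tested on simulated data, where 8 unchanged probe sets were called. Probe sets were named through the deposited tables: 3325 of 3556 listed ones carry a symbol, of which 3279 matched a current RefSeq symbol. Named with values were all members, those of the other Notch genes called in 2 or more of the 4 cut comparisons, and the 3 probe sets most like each member; further names among small counts were chosen after their values were seen. The members and lists were chosen with earlier results of these data known. Replicate numbers did not pair the samples. The number of arrays limits the precision; no sequences are given.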

Additional observations from a re-analysis of the deposited data

Results flagged for a closer look

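Differences of the cut effect between culture times passed limma's interaction test, adjusted over all probe sets, for 4 genes of the wider Notch list and for no member, where 2.15% of all probe sets passed in the anterior region. Of the 4, E(spl)mdelta-HLH, bib and kuz are named through the deposited table of cut comparisons, whose overall test used the same cut effects, so their passing is no independent support. E(spl)m2-BFM is named through the table of culture comparisons. The test of that table used the same uncut cultured arrays, so the passing of E(spl)m2-BFM is no independent support either. The anterior contrast between times includes uncut 12 h anterior samples, which were centred apart from its other groups. It cannot tell a change of the cut effect with time from that centring. In the anterior region the log2 cut effect was 0.987 higher at 24 h than at 12 h for E(spl)mdelta-HLH (limma adjusted p = 0.00323). It was 1.288 higher for E(spl)m2-BFM (limma adjusted p = 0.00581), where it went from a fall to a rise. The channel-like membrane protein gene bib changed by 1.352 (limma adjusted p = 0.00572), from -1.08 at 12 h to 0.27 at 24 h. The gene kuz, which encodes a protease that cuts Notch, changed by 0.7135 (limma adjusted p = 0.0479), from -0.62 to 0.09. With 1 array left out the call of kuz was lost in 17 of 30 fits (adjusted p up to 0.155), while those of the other 3 held in all 30 (adjusted p at most 0.0248). Leaving out arrays does not remove the separate centring. Both bib and kuz fall outside the naming rule and were named after their values were seen. All 6 member probe sets had changes of the same sign, from 0.08 to 0.56, without passing the test. With 3 samples per group no sample was tested for standing apart from its group.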

How the results depend on the processing

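Of 2688 values of members under an alternative setting or with 1 array left out, 2588 kept their direction and side of the threshold, 76 lost a call, 24 gained one and 0 reversed. In 27 a difference that was not called changed sign. With 1 array left out, the number of 6 probe sets called lower in cut against uncut cultured regions ran from 3 to 6 at 12 h anterior, 0 to 2 at 12 h posterior, 0 to 1 at 24 h anterior and 0 to 5 at 24 h posterior. Against fresh regions it ran from 0 to 4, 0 to 2, 0 to 1 and 0 to 1. Culture called 0 to 2 at 12 h anterior, 0 to 1 at 12 h posterior, 0 to 2 at 24 h anterior and 0 to 2 at 24 h posterior, and the interaction between times in the anterior region 0 to 1. With an adjusted p under 0.01 the cut comparisons called 6, 0, 0 and 1 and the comparisons of cut with fresh regions 1, 0, 0 and 1. With only the samples of the groups compared, which leaves fewer residual degrees of freedom, both posterior cut comparisons called 2, cut against fresh anterior regions called 1 at 12 h but 0 at 24 h, and culture for 24 h called 1 in the posterior region. Centring each array on its median gave 1 call after 24 h of culture in each region (Su(H) anterior, Dl posterior), 0 for cut against fresh at 24 h anterior and 5 at 24 h posterior in cut against uncut regions, with Su(H) newly called. Averaging the probe sets of a gene called Dl, as 1 value for its 2 probe sets, in cut against fresh regions at 12 h on both sides. In the main fit only 1634659_at was called in the anterior and only 1634398_a_at in the posterior region. A replicate block gave 2 calls at 12 h posterior, with E(spl)mbeta-HLH newly called, and 1 call in the anterior interaction between times. It changed no other call of a member, and same-numbered samples did not deviate together (median r 0.0187 over 135 pairs, against -0.0044 over 270 pairs of different number). Keeping control probe sets or a robust prior, the latter chosen after seeing the data, changed no call of a member. The cause of these changes was not tested. For the 12 other Notch genes 3552 values gave 88 lost and 23 gained calls and 0 reversals. A filter on low values, a trend in the prior and a new quantile normalization were not run, because centred values hold no levels. None of the settings removes the separate centring of uncut 12 h anterior and cut 12 h posterior samples.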

Other observations

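Genes of the wider Notch list that are named through the table of culture comparisons moved in uncut regions kept in the abdomen, while no member was called. They were chosen after their values were seen, and their names depend on that table. The gene mam, which encodes the co-activator Mastermind that joins Su(H) and the cut receptor, fell by 0.92 at 12 h and 1.34 at 24 h in the anterior region and by 1.48 and 1.25 in the posterior region (limma adjusted p at most 0.000984). Fresh, cultured and cut groups shared these arrays with the comparisons of the report. The 12 h anterior differences carry the separate centring of the uncut 12 h anterior samples. The gene pen-2, for a subunit of the gamma-secretase that cuts the receptor, fell by 0.52, 0.86, 0.71 and 0.69 in the same order. The gene mib1, for a ubiquitin ligase that acts on Delta in the signalling cell, rose by 0.52, 0.62, 0.58 and 0.75. With 1 array left out the calls of mam and pen-2 held in all 4 comparisons, and that of mib1 at 12 h anterior was lost in 1 fit. Markers of other cells moved in these comparisons as well: Mef2 of muscle and Appl of neurons were called higher after culture in all 4 and PCNA of the cell cycle lower in all 4. The sensory organ and neuron markers went both ways. Besides Appl, futsch was called higher at 24 h in both regions. In contrast, sens was called lower at 12 h posterior and at 24 h in both regions, and ase lower at 12 h posterior. Hemocyte markers called higher numbered 2 at 12 h anterior, 0 at 12 h posterior, 4 at 24 h anterior and 2 at 24 h posterior. Of all 18769 probe sets 1784, 1963, 2632 and 2731 were called higher in the same order. The part of these other cells in the values of mam, pen-2 and mib1 was not tested.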
